A study of Homo sapiens with 12 samples.

Results

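The set described here, cholesterol and fatty acid synthesis, holds 33 genes that were listed by name for their known roles. It has 18 enzymes that build cholesterol, 6 genes that sense or carry sterols, and 9 enzymes that make, lengthen or desaturate fatty acids. These are 33 of the 58174 genes listed in each expression table. No measured value was part of the rule that lists them, but the set was chosen with earlier results of these data known. The study asked how RNA levels change when IGF2BP1, an RNA-binding protein found in embryonic tissue and in tumours, is knocked down. Hep-G2, a line from a liver tumour, and BE(2)-C, a neuroblastoma line, were transfected with a control siRNA (siC) or with a pool of siRNAs against IGF2BP1 (siI1), and polyA RNA was sequenced 72 h later. Hep-G2 received siRNA at 15 nM and BE(2)-C at 25 nM, and both lines grew in medium with serum, each in its own medium. Each of the 4 groups, Hep-G2 siC, Hep-G2 siI1, BE(2)-C siC and BE(2)-C siI1, has 3 libraries, 12 in all. Because dose and medium differ with the cell line, their parts in a difference between the lines cannot be told apart. Effects of the siRNA pool on transcripts other than IGF2BP1 cannot be told apart from effects of IGF2BP1 loss either.

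Cells make cholesterol from acetyl-CoA through mevalonate, isoprenoid pyrophosphates, squalene and lanosterol, and they make fatty acids from the same acetyl-CoA through malonyl-CoA. The transcription factors encoded by SREBF1 and SREBF2 are held in the membrane of the endoplasmic reticulum. When sterol is scarce, the escort protein SCAP carries them to the Golgi, where they are cleaved and released to switch on the genes of both pathways, while INSIG1 and INSIG2 hold SCAP back when sterol is plentiful. The liver is a main site of both pathways, and dividing tumour cells of many kinds use them to build membranes.

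Between 13398903 and 15176939 reads per library fell on genes in Hep-G2, and between 12852988 and 15721210 in BE(2)-C. Levels are in FPKM, the fragments of a gene scaled by the length of the gene and by the size of the library. The FPKM tables of the lines were normalized separately, so a level in one line set beside a level in the other is a description only. Hep-G2 siI1 replicate 1 stood apart from the other libraries. Over 11247 genes its median absolute deviation from its group on the log2 scale was 0.128, while the other 5 Hep-G2 libraries lay between 0.045 and 0.079. The BE(2)-C libraries lay between 0.049 and 0.085 over 10961 genes, siC replicate 1 being the highest. Over 32 genes of the set, this deviation was 0.109 in Hep-G2 siI1 replicate 1 and 0.097 in BE(2)-C siC replicate 1. All other libraries lay between 0.022 and 0.069 over those genes. Hepatocyte markers were present in Hep-G2, where all 6 listed markers were tested and their FPKM added up to 6895, 6953 and 6863 with siC and to 11857, 13594 and 13762 with siI1, with ALB the most abundant. Of these, 5 rose upon knockdown and AFP fell. Their FPKM in BE(2)-C was below 0.1 in every library for 5 of 6 markers, 4 of which were at 0. Sympathetic neuroblast markers gave the opposite picture: in BE(2)-C all 6 were tested, with summed FPKM of 1943, 1767 and 1742 with siC and 1844, 1759 and 1730.4 with siI1 and CHGA the most abundant. There 4 fell, HAND2, PHOX2A and DBH among them, and CHGA rose. In Hep-G2, 5 of these 6 were below 0.1 FPKM in every library, 3 of them at 0, and the sixth, DBH, did not pass the test. The log2 fold changes of the Hep-G2 markers were 1.70 for APOA1, 1.04 for AHSG, 0.95 for ALB and -0.59 for AFP. Those of the BE(2)-C markers were -0.73 for HAND2, -0.40 for PHOX2A and 0.39 for CHGA. For comparison with the marker counts, 21.9% of all genes tested in Hep-G2 rose and 23.0% fell. Among all those tested in BE(2)-C, 13.3% rose and 14.8% fell. The ALB call was lost when no filter was used, that of HNF4A without trend, with equal FPKM sums and without Hep-G2 siC replicate 1, and that of DBH without BE(2)-C siI1 replicate 3. The part of these marker shifts in the changes of the synthesis genes was not tested. In bulk RNA, fewer cells of a type and less RNA per cell cannot be told apart.

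IGF2BP1 itself checks the labels. IGF2BP1 measured 48.5, 46.6 and 50.8 FPKM in the Hep-G2 siC libraries and 12.6, 10.7 and 10.7 FPKM with siI1. IGF2BP1 in BE(2)-C measured 21.3, 20.6 and 21.6 FPKM with siC and 4.85, 4.75 and 4.87 FPKM with siI1. All siI1 libraries lay far below all siC libraries in both lines. The log2 fold change was -2.10 in Hep-G2 (standard error, SE, 0.079, adjusted p = 7.8e-06) and -2.11 in BE(2)-C (SE 0.048, adjusted p = 1.5e-05). Here and below, the adjusted p is the p of a moderated linear model after correction over all genes tested in that comparison, and a gene counts as changed when it is below 0.05. The knockdown did not pass the test for a difference between the lines, at 0.02 (SE 0.093, adjusted p = 0.91) on the log2 scale.

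Upon knockdown, most cholesterol and fatty acid synthesis genes rose in Hep-G2 and most fell in BE(2)-C. In Hep-G2, 23 of the 32 tested members were higher with siI1 and 3 were lower, while 21.9% of all 19436 tested genes were higher and 23.0% were lower. In BE(2)-C, 22 of 33 members were lower and 1 was higher, while 14.8% of all 18656 tested genes were lower and 13.3% were higher. The Hep-G2 median log2 fold change was 0.71 over the members and 0.01 over all tested genes, and the BE(2)-C medians were -0.32 and 0.02. A test of the difference between the lines covered 32 members, and the effect in Hep-G2 lay above that in BE(2)-C for 25 and below it for 2, INSIG2 and ELOVL6, the latter not with a pseudocount of 1. Over all 15362 genes tested in both lines, 18.5% were called in the first direction and 21.7% in the second. The median difference in log2 fold change was 1.00 for the members and -0.04 for all genes. Of the members, 15 rose in Hep-G2 and fell in BE(2)-C: ACAT2, MVK, MVD, FDPS, FDFT1, LSS, TM7SF2, NSDHL, HSD17B7, EBP, DHCR7, SCAP, SCD, FADS1 and FADS2. SC5D and ELOVL6 fell in both lines, and no member rose in both.

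**Figure D1:**
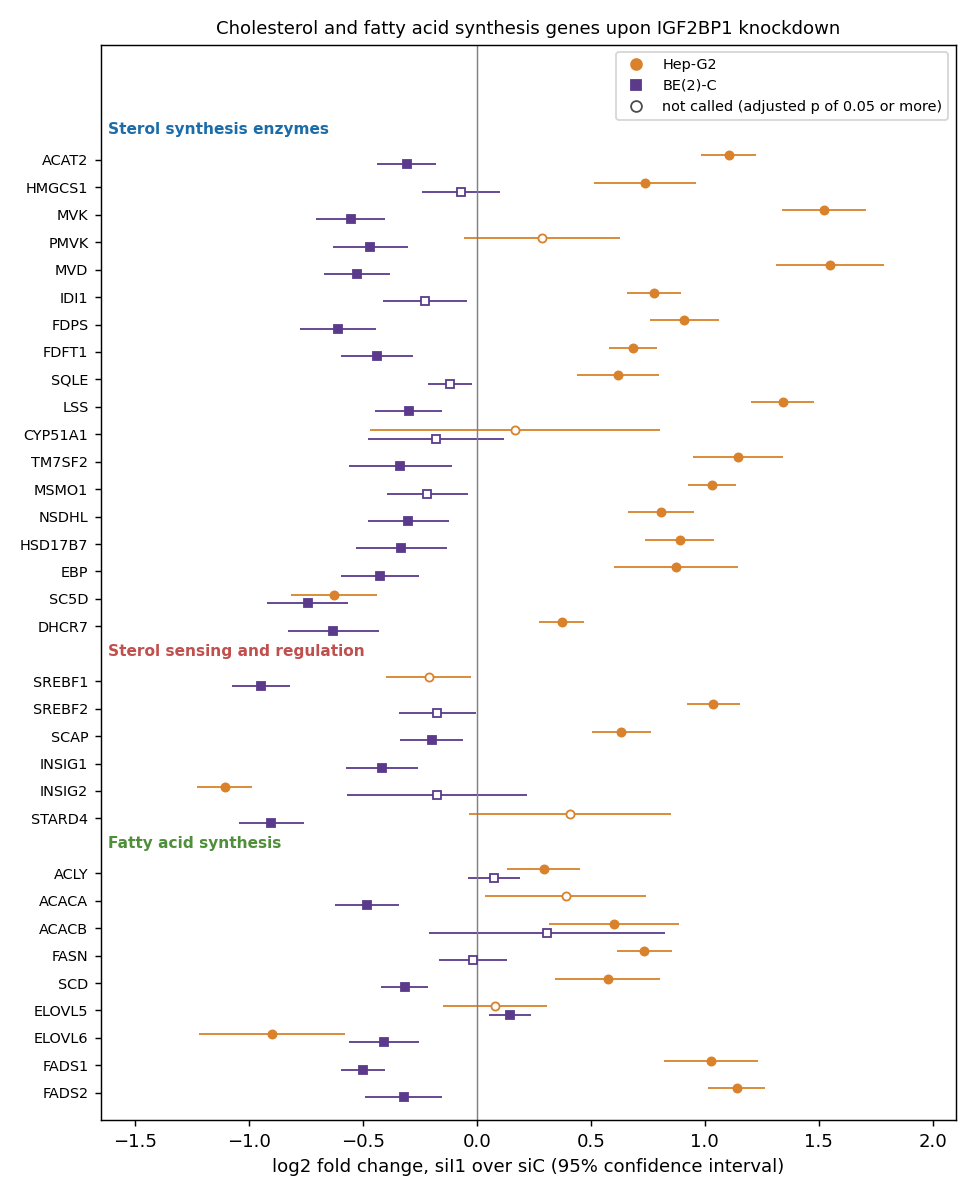
The log2 fold change of each member (siI1 minus siC, horizontal axis) is drawn for Hep-G2 and BE(2)-C with its 95% confidence interval and open symbols where not called, with members grouped by role on the vertical axis. In Hep-G2, 23 members are higher and 3 lower, and in BE(2)-C 22 are lower and 1 is higher; the small positive value of ELOVL5 in Hep-G2 turns negative, and the small negative value of FASN in BE(2)-C turns positive, under another scaling of the libraries.

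The members as a whole made up between 0.464% and 0.5003% of all FPKM in the Hep-G2 siC libraries and between 0.673% and 0.765% in the siI1 libraries. The BE(2)-C share was between 0.468% and 0.488% with siC and between 0.410% and 0.414% with siI1. These shares did not overlap between siC and siI1 in either line. Of the 32 tested members, 25 had all 3 Hep-G2 siI1 values above all 3 siC values and 4 had them below, against 28.0% and 27.8% of all tested genes. Of the 33 in BE(2)-C, 26 had all siI1 values below and 2 above, against 22.4% and 22.6%. The sum of FPKM over all genes was itself higher with siI1 in Hep-G2, from 252616 to 264612 with siC and from 273699 to 300505 with siI1. Setting these sums equal moved the median log2 fold change of all Hep-G2 genes from 0.01 to -0.15, and relative to that scale 22 members were higher and 4 lower. On that scale ACLY was no longer called, at 0.12, and SREBF1 was called lower, at -0.38. The shares of all tested genes called on that scale are not reported here. The called shares given above belong to the values as deposited.

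**Figure D2:**
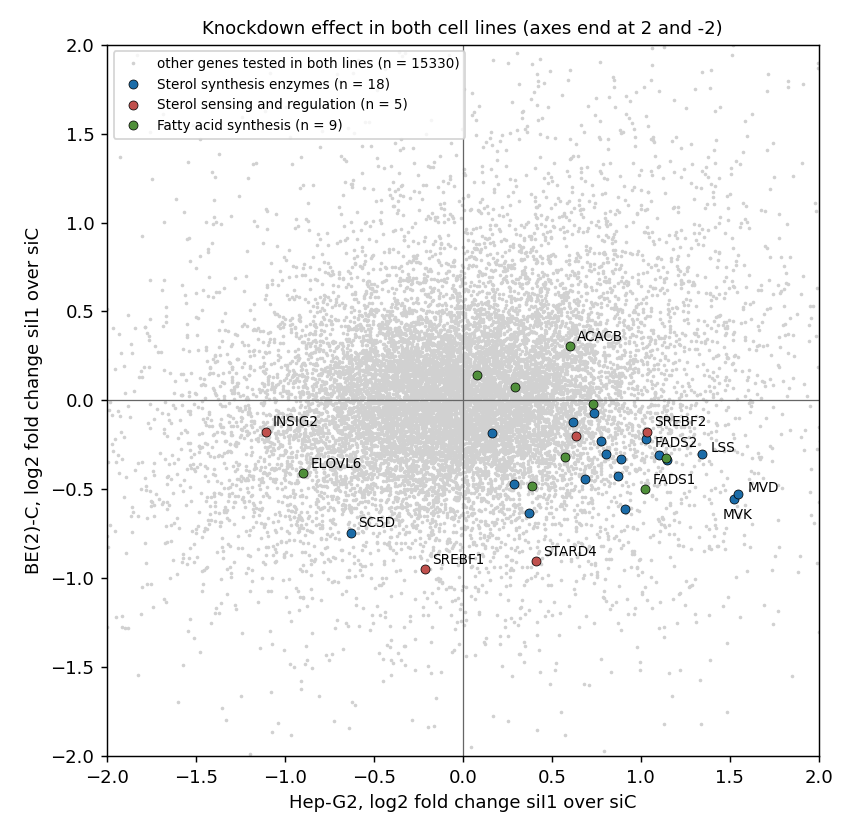
Each point is a gene tested in both lines, with its log2 fold change in Hep-G2 on the horizontal axis and in BE(2)-C on the vertical axis; the 32 members are coloured over 15330 other genes, of which 362 lie outside the drawn range. The 15 members called in opposite directions sit to the right of 0 and below 0, and SC5D and ELOVL6 sit below 0 on both axes.

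The library that stood apart, Hep-G2 siI1 replicate 1, also did so for members. SCD, HMGCS1, SQLE, FADS1, ACLY, ACACA, STARD4, CYP51A1 and ELOVL5 were among the members highest there of the siI1 libraries. PMVK, EBP, MVD and TM7SF2 were among those lowest there. Neither list is complete: IDI1 was also highest there, and ACAT2 also lowest. Without this library, 24 members were higher in Hep-G2 and 3 lower. PMVK then passed the test, at a log2 fold change of 0.45 (adjusted p = 0.0064) instead of 0.29 (adjusted p = 0.15), and no call was lost. CYP51A1 and ELOVL5, uncalled with and without it, changed sign, from 0.17 to -0.15 and from 0.08 to -0.03 on the log2 scale. The share of all tested genes called without this library is not reported here.

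**Figure D3:**
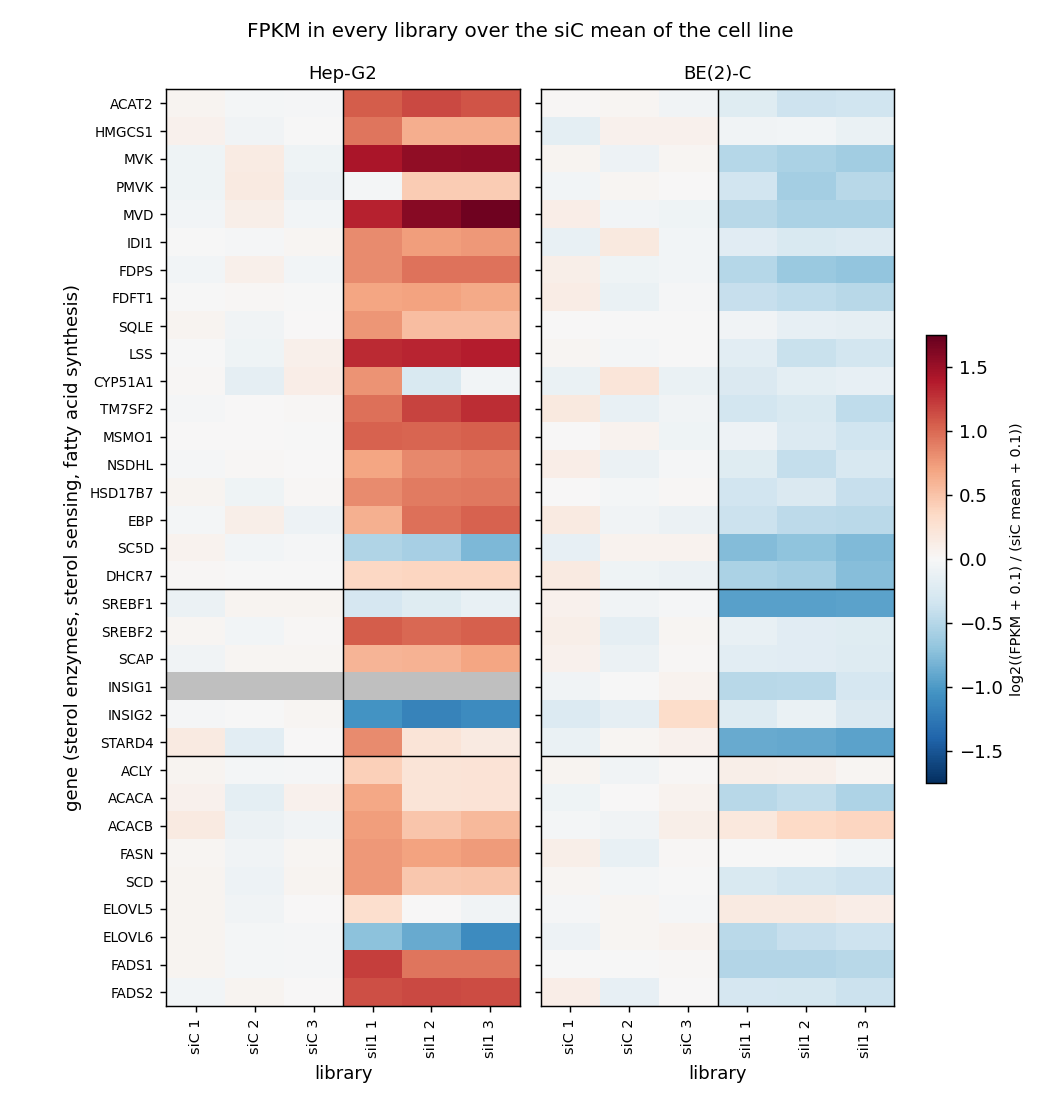
The heat map gives, for every member (vertical axis) and library (horizontal axis, by group and replicate), the log2 ratio of FPKM to the siC mean of that line, each plus 0.1, in red above and blue below 0, with untested INSIG1 in grey. In Hep-G2 the siI1 columns are mostly above siC, with replicate 1 unlike replicates 2 and 3 for several genes, and in BE(2)-C they are mostly below.

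Among the 6 genes that sense or carry sterols, 2 of the 5 tested in Hep-G2 rose, SREBF2 and SCAP, and INSIG2 fell. Of the 6 in BE(2)-C, 4 fell, SREBF1, SCAP, INSIG1 and STARD4, and none rose. The median log2 fold changes were 0.41 and -0.31. Over all tested genes, 21.9% rose and 23.0% fell in Hep-G2, and 13.3% rose and 14.8% fell in BE(2)-C. SREBF2 encodes the transcription factor that mainly drives the sterol genes. SREBF2 measured 24.1, 22.6 and 23.7 FPKM in the Hep-G2 siC libraries and 48.98, 47.0 and 48.8 FPKM with siI1. Its siI1 values were all above the siC values, at a log2 fold change of 1.04 (SE 0.048, adjusted p = 1.6e-05). The SREBF2 groups overlapped in BE(2)-C and the log2 fold change, -0.17 (adjusted p = 0.11), did not pass the test, although without siC replicate 2 it was -0.25 and passed, as it did with limma-voom on the reads, at -0.18. SREBF1 encodes the factor that mainly drives the fatty acid genes. SREBF1 in BE(2)-C measured 15.2, 13.8 and 14.3 FPKM with siC and 7.42, 7.40 and 7.52 FPKM with siI1. The siI1 values were all far below siC, with a ratio of mean FPKM of 0.515 and a log2 fold change of -0.95 (SE 0.054, adjusted p = 0.00016). In Hep-G2 the SREBF1 siI1 values were also all below the siC values, at a log2 fold change of -0.21, which did not pass the test (adjusted p = 0.066). It was called lower under 3 other settings, at -0.38 with equal FPKM sums and at -0.21 both with a filter of 1 FPKM and with limma-voom on the reads. The difference between the lines passed for both genes, at 1.21 (SE 0.089, adjusted p = 2.1e-06) for SREBF2 and 0.73 (SE 0.092, adjusted p = 9.8e-05) for SREBF1 on the log2 scale.

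SCAP escorts both factors to the Golgi. The FPKM of SCAP in Hep-G2 read 14.9, 15.9 and 15.9 under siC and 23.6, 23.7 and 25.3 under siI1. The FPKM of SCAP in BE(2)-C read 15.5, 13.6 and 14.8 under siC and 12.9, 12.7 and 12.5 under siI1. The groups did not overlap in either line, siI1 being above siC in Hep-G2, at a log2 fold change of 0.63 (SE 0.055, adjusted p = 0.00016), and below it in BE(2)-C, at -0.20 (SE 0.058, adjusted p = 0.042), a call that depended on single libraries and fit settings. INSIG2, which retains SCAP in the endoplasmic reticulum, went the other way in Hep-G2. INSIG2 measured 33.6, 34.1 and 34.9 FPKM in the Hep-G2 siC libraries and 16.5, 15.2 and 15.8 FPKM with siI1. All siI1 values were below all siC values, and INSIG2 fell by 1.11 on the log2 scale (SE 0.051, adjusted p = 1.5e-05). It was scarce in BE(2)-C, whose table was normalized separately, at 1.64 to 2.498 FPKM over all 6 libraries, where the groups overlapped and the log2 fold change was -0.18 (adjusted p = 0.48), close to 0 without siC replicate 3 and -0.28 without siC replicate 1. The INSIG2 difference between the lines was -0.93 (SE 0.17, adjusted p = 0.0012). INSIG1, which does the same task, had 0 reads in 4 Hep-G2 libraries and 1 read in the other two, and could not be tested there. The reason was not tested, so the value shows what was counted and not whether the gene is silent. The 3 reads that a count of 0 allows would be at most 0.0615 FPKM, a limit that covers counting error only. INSIG1 values in BE(2)-C were 17.4, 18.1 and 19.1 FPKM with siC and 12.9, 13.1 and 14.8 FPKM with siI1. The groups did not overlap, and INSIG1 fell by 0.42 on the log2 scale (SE 0.067, adjusted p = 0.0047).

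STARD4 carries sterol between membranes. STARD4 in BE(2)-C measured 19.7, 21.9 and 22.5 FPKM with siC and 11.6, 11.5 and 11.1 FPKM with siI1. The siI1 values were all below the siC values, at a log2 fold change of -0.90 (SE 0.061, adjusted p = 0.00023). In Hep-G2 its siI1 values were all above siC, but replicate 1 was far higher than the other two, and the log2 fold change of 0.41 did not pass the test (adjusted p = 0.12), with 0.20 (adjusted p = 0.17) without that library, and 0.24 with equal FPKM sums. With a replicate block and with limma-voom on the reads it was called higher, at 0.41 in each. The STARD4 difference between the lines, 1.31 (SE 0.21, adjusted p = 0.00056), passed.

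**Figure D4:**
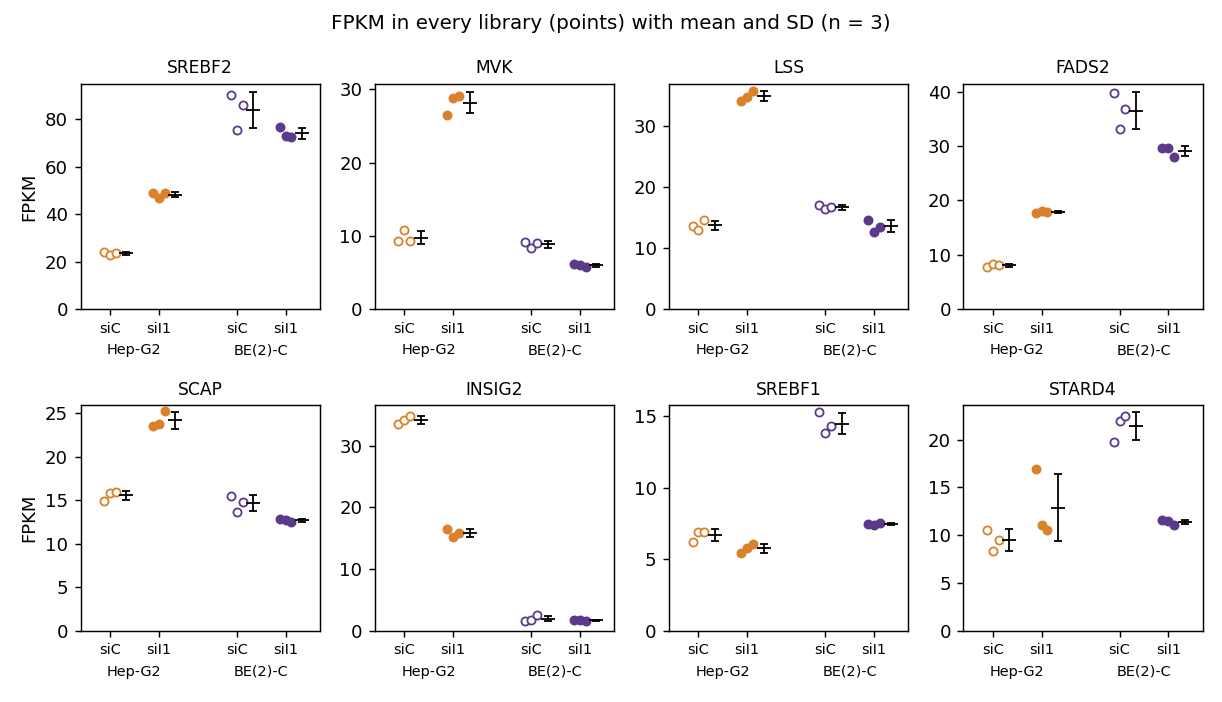
FPKM of 8 members (vertical axes, from 0) in the 3 siC (open) and 3 siI1 (filled) libraries of each line (horizontal axis), with points for libraries and a line with error bars for mean and standard deviation. SREBF2 in Hep-G2 goes from at most 24.1 FPKM with siC to at least 47.0 FPKM with siI1, while INSIG2 goes from at least 33.6 FPKM to at most 16.5 FPKM.

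Because SREBF2 and its targets are known to be switched on through sterol regulatory elements, promoter sequence was read for the members. RefSeq sequences on build GRCh38.p14 gave 40 promoters for 29 of the 33 members, with none matched for ACAT2, FDFT1, SQLE and FASN, each taken as the 250 bases before the start. The core of the sterol regulatory element, TCACNCCA with N any base, was present on either strand in 3 of the 40, those of SREBF2, MVK and MSMO1. These are shown because they carry this core beside CCAAT boxes, the site of a factor known to work with the SREBF proteins. All are on the plus strand and written 5′ to 3′, MVK and MSMO1 without bases that lie in an annotated untranslated region, and capitals mark matches to TCACNCCA and CCAAT on either strand. The stretches are chr22:41832855-41833104 for SREBF2, chr12:109573581-109573792 for MVK and chr4:165327419-165327666 for MSMO1.
SREBF2: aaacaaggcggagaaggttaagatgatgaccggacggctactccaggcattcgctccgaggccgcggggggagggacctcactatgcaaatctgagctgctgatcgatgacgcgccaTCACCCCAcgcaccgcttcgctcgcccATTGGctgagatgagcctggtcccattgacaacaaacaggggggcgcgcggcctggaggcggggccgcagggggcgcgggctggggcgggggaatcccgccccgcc
MVK: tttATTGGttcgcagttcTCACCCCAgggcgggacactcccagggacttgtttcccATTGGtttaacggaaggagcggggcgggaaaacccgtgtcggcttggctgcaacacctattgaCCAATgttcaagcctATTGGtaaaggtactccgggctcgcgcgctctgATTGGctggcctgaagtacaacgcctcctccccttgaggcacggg
MSMO1: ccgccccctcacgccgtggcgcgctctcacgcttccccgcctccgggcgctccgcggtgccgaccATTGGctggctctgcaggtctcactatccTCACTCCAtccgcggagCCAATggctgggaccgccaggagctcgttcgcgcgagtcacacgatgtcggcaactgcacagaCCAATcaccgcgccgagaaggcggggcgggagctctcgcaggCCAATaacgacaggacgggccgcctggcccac

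In the SREBF2 promoter 125 bases lie between the core and the start, and the core is followed by C, so that it also matches the longer form TCACNCCAC. In MVK 187 and in MSMO1 148 bases lie between the core and the start. The core was present in 7.5% of the members' promoters, against 3.2% of all 35116 promoters and 2.7% of those of genes tested in both lines. The longer form was in 2.5% of the members' promoters and in 0.883% of all. None of the 13 promoters of the fatty acid genes held the core. CCAAT was more frequent, in 62.5% of the members' promoters, against 32% of all and 33.7% of those of tested genes. By role it was in 75% of the promoters of sterol enzymes, 53.8% of those of fatty acid genes and 42.9% of those of sterol sensing genes. The GC box GGGCGG was in 85%, against 42.6% of all and 64.7% of tested genes, and the E-box CACGTG in 12.5%, against 6.34% and 8.62%. Several members have more than 1 start and are counted once per start. A match is a description of the sequence, and binding was not tested.

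Of the 18 sterol enzymes, 15 rose and 1 fell in Hep-G2, and 13 fell and none rose in BE(2)-C. Their median log2 fold changes were 0.84 and -0.33. The shares of all tested genes were 21.9% higher and 23.0% lower in Hep-G2, and 13.3% higher and 14.8% lower in BE(2)-C. The first steps lead from acetyl-CoA to mevalonate. ACAT2 joins acetyl-CoA units to acetoacetyl-CoA. ACAT2 measured 49.2, 46.2 and 47.0 FPKM in the Hep-G2 siC libraries and 99.6, 106 and 102 FPKM with siI1. ACAT2 in BE(2)-C measured 31.5, 31.8 and 29.9 FPKM with siC and 26.7, 24.2 and 24.4 FPKM with siI1. Its siI1 values lay above all siC values in Hep-G2 and below all of them in BE(2)-C. The log2 fold changes were 1.10 (SE 0.051, adjusted p = 1.5e-05) in Hep-G2 and -0.31 (SE 0.054, adjusted p = 0.0066) in BE(2)-C. HMGCS1 adds a further acetyl group to form HMG-CoA. The FPKM of HMGCS1 in Hep-G2 read 65.9, 60.0 and 62.3 under siC and 120.3, 97.6 and 97.2 under siI1. The siI1 values were all higher, the highest being replicate 1, and the log2 fold change was 0.74 (SE 0.094, adjusted p = 0.00088), or 0.63 without that replicate. The HMGCS1 groups overlapped in BE(2)-C, at a log2 fold change of -0.07 (adjusted p = 0.51) with all libraries and a call as lower without siC replicate 1, at -0.15. Without siC replicate 2 or 3 it was -0.03 in each case, uncalled.

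MVK and MVD, which with PMVK turn mevalonate into isopentenyl pyrophosphate, had the largest differences between the lines among the 32 members tested in both. MVK is mevalonate kinase. MVK measured 9.28, 10.7 and 9.23 FPKM in the Hep-G2 siC libraries and 26.5, 28.8 and 29.1 FPKM with siI1. MVK in BE(2)-C measured 9.17, 8.28 and 9.03 FPKM with siC and 6.20, 5.96 and 5.77 FPKM with siI1. No siI1 value overlapped with siC in either line, and the ratio of mean FPKM, siI1 to siC, was 2.89 in Hep-G2 against 0.677 in BE(2)-C. Log2 fold changes were 1.52 (SE 0.077, adjusted p = 2.0e-05) and -0.55 (SE 0.064, adjusted p = 0.0013), and their difference was 2.08 (SE 0.10, adjusted p = 1.5e-07). MVD is the decarboxylase. The FPKM of MVD in Hep-G2 read 45.9, 51.0 and 46.1 under siC and 121, 144 and 155 under siI1. The FPKM of MVD in BE(2)-C read 24.3, 21.6 and 21.3 under siC and 16.0, 15.2 and 15.3 under siI1. Again the groups stood apart in both lines, in opposite directions. MVD had a log2 fold change of 1.55 (SE 0.10, adjusted p = 4.9e-05) in Hep-G2, the highest of all members there, and of -0.53 (SE 0.062, adjusted p = 0.0014) in BE(2)-C, a difference of 2.08 (SE 0.12, adjusted p = 6.5e-07). PMVK, the kinase between them, overlapped between the Hep-G2 groups because siI1 replicate 1 lay among the siC values. Its log2 fold change was 0.29 (adjusted p = 0.15) with that library and 0.45 (adjusted p = 0.0064) without it, and 0.12 with equal FPKM sums. PMVK fell in BE(2)-C, at a log2 fold change of -0.47 (SE 0.070, adjusted p = 0.0034), with no overlap of the groups.

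IDI1 interconverts the isopentenyl isomers. IDI1 measured 61.2, 60.7 and 63.0 FPKM in the Hep-G2 siC libraries and 109, 103 and 105 FPKM with siI1. Every siI1 value was higher, at a log2 fold change of 0.78 (SE 0.049, adjusted p = 4.5e-05). The IDI1 siI1 values in BE(2)-C were all below siC, but the log2 fold change of -0.23 did not pass (adjusted p = 0.071). Without siC replicate 1 it did, at -0.29, and also with limma-voom on the reads, at -0.23, while without siC replicate 2 it was -0.14 (adjusted p = 0.11). FDPS makes farnesyl pyrophosphate, the branch point to other isoprenoids. The FPKM of FDPS in Hep-G2 read 48.97, 54.1 and 49.2 under siC and 89.9, 98.5 and 97.8 under siI1. The FPKM of FDPS in BE(2)-C read 99.8, 88.3 and 89.7 under siC and 65.6, 59.1 and 57.3 under siI1. The groups did not overlap in either line, and FDPS took opposite directions in them. The log2 fold changes were 0.91 (SE 0.064, adjusted p = 6.9e-05) and -0.61 (SE 0.070, adjusted p = 0.0013), with a difference of 1.52 (SE 0.099, adjusted p = 1.1e-06). On the opposite strand, exons of other genes cover 37.7% of the exonic bases of HMGCS1, 22.2% of those of ACAT2, 18.6% of those of FDPS and 15% of those of IDI1. The libraries were strand-specific, the strand setting of the read counting is not stated, and whether such reads were counted was not tested.

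The next enzymes build squalene and close the first sterol ring system. FDFT1 is squalene synthase. FDFT1 measured 58.1, 59.4 and 58.3 FPKM in the Hep-G2 siC libraries and 94.2, 95.7 and 92.8 FPKM with siI1. FDFT1 in BE(2)-C measured 63.7, 53.5 and 57.5 FPKM with siC and 43.997, 42.8 and 41.7 FPKM with siI1. FDFT1 was higher in all Hep-G2 siI1 libraries and lower in all BE(2)-C siI1 libraries. Its log2 fold changes were 0.69 (SE 0.044, adjusted p = 4.9e-05) and -0.44 (SE 0.067, adjusted p = 0.0037). SQLE is squalene epoxidase, a step at which flux is known to be controlled. The FPKM of SQLE in Hep-G2 read 44.8, 41.5 and 43.7 under siC and 73.9, 63.0 and 63.1 under siI1. The groups did not overlap, with a log2 fold change of 0.62 (SE 0.076, adjusted p = 0.00075). The SQLE siI1 values in BE(2)-C were all below siC by a narrow margin, and the log2 fold change of -0.12 did not pass the test (adjusted p = 0.069). LSS is lanosterol synthase. LSS measured 13.6, 13.0 and 14.6 FPKM in the Hep-G2 siC libraries and 34.1, 34.7 and 35.8 FPKM with siI1. LSS in BE(2)-C measured 17.1, 16.3 and 16.7 FPKM with siC and 14.6, 12.7 and 13.4 FPKM with siI1. LSS values stood apart in both lines, more widely in Hep-G2, where the ratio of mean FPKM was 2.54. The log2 fold changes were 1.34 (SE 0.058, adjusted p = 1.2e-05) and -0.30 (SE 0.062, adjusted p = 0.012), with a difference of 1.64 (SE 0.085, adjusted p = 2.3e-07).

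Of the enzymes that turn lanosterol into cholesterol, all but CYP51A1 and SC5D rose in Hep-G2. TM7SF2 is a sterol reductase. TM7SF2 measured 20.0, 20.4 and 20.6 FPKM in the Hep-G2 siC libraries and 39.9, 46.2 and 49.8 FPKM with siI1. TM7SF2 in BE(2)-C measured 7.501, 6.09 and 6.36 FPKM with siC and 5.31, 5.50 and 4.88 FPKM with siI1. No value of a siI1 library fell among the siC values in either line. TM7SF2 log2 fold changes were 1.15 (SE 0.084, adjusted p = 7.7e-05) in Hep-G2 and -0.34 (SE 0.095, adjusted p = 0.038) in BE(2)-C, where the call depended on single libraries and fit settings. MSMO1 removes methyl groups from the sterol and had the highest mean FPKM of the sterol enzymes in Hep-G2, with siC and with siI1. The FPKM of MSMO1 in Hep-G2 read 72.0, 72.0 and 71.9 under siC and 147, 146 and 148 under siI1. Replicates were nearly alike within each group and far apart between groups, at a log2 fold change of 1.03 (SE 0.045, adjusted p = 1.2e-05). Its BE(2)-C siI1 values were all below siC, with a log2 fold change of -0.22 that did not pass (adjusted p = 0.072), and that passed without siI1 replicate 1, at -0.29, and with limma-voom, at -0.22.

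NSDHL and HSD17B7 complete the removal of those methyl groups. NSDHL measured 29.3, 30.2 and 29.9 FPKM in the Hep-G2 siC libraries and 48.3, 53.5 and 55.0 FPKM with siI1. NSDHL in BE(2)-C measured 36.7, 31.7 and 33.3 FPKM with siC and 29.4, 25.3 and 27.8 FPKM with siI1. The NSDHL groups did not overlap in either line, and log2 fold changes were 0.81 (SE 0.061, adjusted p = 8.9e-05) and -0.30 (SE 0.076, adjusted p = 0.025). The BE(2)-C calls of NSDHL and of HSD17B7 depended on single libraries and fit settings. The FPKM of HSD17B7 in Hep-G2 read 6.51, 5.996 and 6.38 under siC and 11.2, 11.94 and 12.1 under siI1. The FPKM of HSD17B7 in BE(2)-C read 3.14, 3.06 and 3.19 under siC and 2.46, 2.61 and 2.34 under siI1. HSD17B7 was likewise higher in every Hep-G2 siI1 library and lower in every BE(2)-C siI1 library. Its log2 fold changes were 0.89 (SE 0.064, adjusted p = 7.4e-05) and -0.33 (SE 0.084, adjusted p = 0.026). EBP shifts a double bond in the ring. EBP measured 35.3, 38.8 and 33.9 FPKM in the Hep-G2 siC libraries and 55.4, 70.5 and 73.5 FPKM with siI1. EBP in BE(2)-C measured 62.8, 54.3 and 52.6 FPKM with siC and 43.7, 41.3 and 40.9 FPKM with siI1. EBP separated the groups in both lines, although Hep-G2 siI1 replicate 1 was well below the other two. The log2 fold changes were 0.87 (SE 0.11, adjusted p = 0.00098), or 1.00 without that replicate, and -0.43 (SE 0.072, adjusted p = 0.0058). Exons of another gene on the same strand cover 36.4% of the exonic bases of EBP in a newer annotation than that of the tables.

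DHCR7 makes the last reduction to cholesterol. The FPKM of DHCR7 in Hep-G2 read 42.1, 41.3 and 41.4 under siC and 53.4, 53.9 and 54.3 under siI1. The FPKM of DHCR7 in BE(2)-C read 42.4, 36.1 and 35.3 under siC and 25.8, 24.998 and 22.5 under siI1. Groups did not overlap in either line, with siI1 above siC in Hep-G2 and below it in BE(2)-C. DHCR7 log2 fold changes were 0.37 (SE 0.042, adjusted p = 0.00051) and -0.63 (SE 0.085, adjusted p = 0.0023), and the rise in Hep-G2 was 0.20 with equal FPKM sums, still called. SC5D, the sterol desaturase just before it, fell in both lines. SC5D measured 19.6, 18.2 and 18.5 FPKM in the Hep-G2 siC libraries and 13.0, 12.5 and 10.9 FPKM with siI1. SC5D in BE(2)-C measured 7.76, 8.97 and 8.99 FPKM with siC and 5.03, 5.22 and 4.96 FPKM with siI1. All siI1 values were below all siC values in each line. The log2 fold changes of SC5D were -0.63 (SE 0.079, adjusted p = 0.00082) and -0.74 (SE 0.076, adjusted p = 0.00082). The difference between the lines, 0.11 on the log2 scale, did not pass (adjusted p = 0.44) and was -0.07 with equal FPKM sums. CYP51A1, lanosterol demethylase, was called in neither line. Its log2 fold change in Hep-G2 was 0.17 (adjusted p = 0.65), turning to -0.15 without siI1 replicate 1, and in BE(2)-C it was -0.18 (adjusted p = 0.34), or -0.07 without siC replicate 2. With equal FPKM sums the CYP51A1 value in Hep-G2 was 0.01. Its level is uncertain: the libraries held between 109 and 235 reads on it, and exons of other genes on the same strand cover 68.2% of its exonic bases in the newer annotation.

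Added over the 18 sterol enzymes, FPKM was 648, 654 and 643 in the Hep-G2 siC libraries and 1167, 1203 and 1219 with siI1. The same sum in BE(2)-C came to 616, 588 and 584 for siC and to 483, 450.0 and 445 for siI1. The sums did not overlap between siC and siI1 in either line, with siI1 above siC in Hep-G2 and below it in BE(2)-C. For the 9 fatty acid genes the Hep-G2 sum of FPKM came to 526, 485 and 519 for siC and to 816, 698 and 703 for siI1. The BE(2)-C sums were 661, 613 and 644 for siC and 610.2, 602 and 583 for siI1, and these sums stood closer together than those of the sterol enzymes. The most abundant fatty acid gene was SCD in Hep-G2 and ACLY in BE(2)-C.

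**Figure D5:**
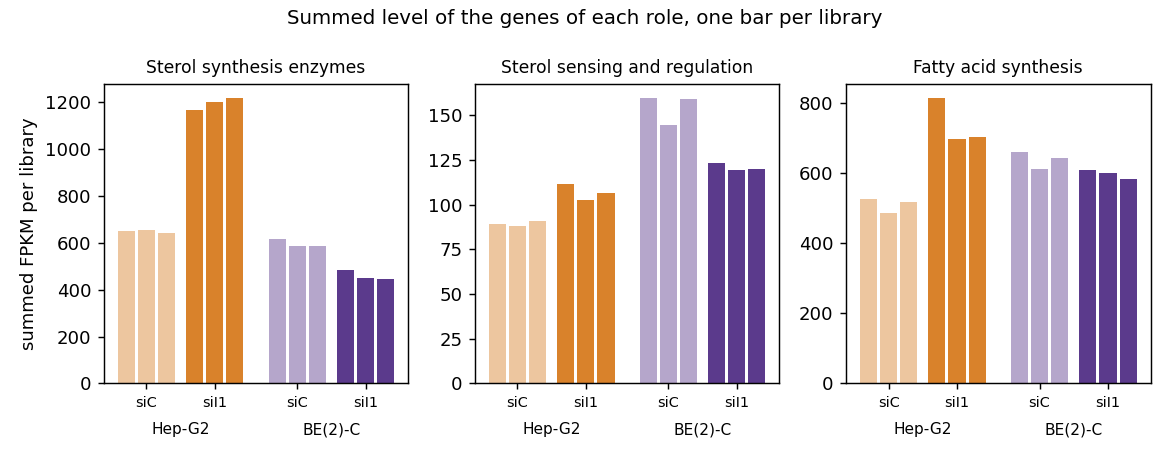
Summed FPKM (vertical axis, from 0) of the members by role in each siC and siI1 library of each line (horizontal axis), with a bar for each library. The sum over sterol enzymes in Hep-G2 lies at or below 654 with siC and at or above 1167 with siI1.

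Of the 9 fatty acid genes, 6 rose and ELOVL6 fell in Hep-G2, with a median log2 fold change of 0.57. Of the same 9 in BE(2)-C, 5 fell and ELOVL5 rose, with a median of -0.32. The shares over all tested genes were 21.9% higher and 23.0% lower in Hep-G2, and 13.3% higher and 14.8% lower in BE(2)-C. ACLY splits citrate into the acetyl-CoA that both pathways use. It rose in Hep-G2 at a log2 fold change of 0.29 (SE 0.068, adjusted p = 0.012), the smallest rise called there, and without siC replicate 3 it was not called (adjusted p = 0.051). It overlapped between the BE(2)-C groups, at 0.07 (adjusted p = 0.30). ACACA and ACACB make malonyl-CoA. ACACB measured 2.27, 1.89 and 1.95 FPKM in the Hep-G2 siC libraries and 3.45, 2.91 and 3.07 FPKM with siI1. The siI1 values were all above siC, at a log2 fold change of 0.60 (SE 0.12, adjusted p = 0.0063). ACACB was low in BE(2)-C, at 0.264 to 0.392 FPKM in a table normalized separately, with a log2 fold change of 0.31 (adjusted p = 0.35), or 0.10 with a pseudocount of 1. ACACA fell in BE(2)-C, at a log2 fold change of -0.48 (SE 0.059, adjusted p = 0.0016), and was uncalled in Hep-G2, at 0.39 (adjusted p = 0.071), where a replicate block and limma-voom on the reads called it higher, at 0.39 and 0.40. Without siI1 replicate 1 it was 0.24 (adjusted p = 0.11), and with equal FPKM sums 0.23. Its difference between the lines, 0.87 (SE 0.16, adjusted p = 0.0015), passed. FASN builds palmitate from malonyl-CoA. The FPKM of FASN in Hep-G2 read 70.1, 65.6 and 70.0 under siC and 116, 112 and 115 under siI1. FASN did not overlap between the Hep-G2 groups, at a log2 fold change of 0.73 (SE 0.051, adjusted p = 6.5e-05). The FASN groups overlapped in BE(2)-C, at a log2 fold change of -0.02 (adjusted p = 0.87) that turns to 0.01 under median centring. The FASN difference of 0.75 (SE 0.083, adjusted p = 3.8e-05) passed.

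SCD puts the first double bond into saturated fatty acids and was the most abundant member in Hep-G2. SCD measured 285, 259 and 284 FPKM in the Hep-G2 siC libraries and 465, 384 and 387 FPKM with siI1. SCD in BE(2)-C measured 182, 175 and 178 FPKM with siC and 148, 142 and 139 FPKM with siI1. SCD was higher in all Hep-G2 siI1 libraries, most of all in replicate 1, and lower in all BE(2)-C siI1 libraries. The log2 fold changes were 0.57 (SE 0.097, adjusted p = 0.0032), or 0.48 without that replicate, and -0.32 (SE 0.043, adjusted p = 0.0024). FADS1 and FADS2, the desaturases of polyunsaturated fatty acids, overlap on chromosome 11, where on hg38 FADS1 spans chr11:61799627-61829318 on the minus strand, inside FADS2, which spans chr11:61792980-61867354 on the plus strand. Exons on the opposite strand, those of FADS2 for FADS1 and of FADS1 for FADS2, cover 4.79% and 4.64% of their exonic bases. The FPKM of FADS1 in Hep-G2 read 11.7, 10.95 and 11.1 under siC and 26.2, 21.6 and 21.5 under siI1. The FPKM of FADS1 in BE(2)-C read 19.4, 19.4 and 19.9 under siC and 13.7, 13.7 and 14.0 under siI1. FADS1 groups did not overlap in either line, with log2 fold changes of 1.03 (SE 0.087, adjusted p = 0.00014) and -0.50 (SE 0.041, adjusted p = 0.00039). FADS2 measured 7.77, 8.34 and 8.06 FPKM in the Hep-G2 siC libraries and 17.7, 18.0 and 17.9 FPKM with siI1. FADS2 in BE(2)-C measured 39.8, 33.1 and 36.8 FPKM with siC and 29.7, 29.6 and 28.1 FPKM with siI1. FADS2 took the same directions with no overlap, at log2 fold changes of 1.141 (SE 0.053, adjusted p = 1.5e-05) and -0.32 (SE 0.071, adjusted p = 0.016), the latter not called without siI1 replicate 3. Differences between the lines were 1.53 (SE 0.098, adjusted p = 1.1e-06) for FADS1 and 1.46 (SE 0.089, adjusted p = 7.5e-07) for FADS2.

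Unlike most members, the elongase ELOVL6 fell in Hep-G2, and the elongase ELOVL5 rose in BE(2)-C. ELOVL6 lengthens palmitate. The FPKM of ELOVL6 in Hep-G2 read 2.75, 2.58 and 2.602 under siC and 1.57, 1.39 and 1.18 under siI1. The FPKM of ELOVL6 in BE(2)-C read 8.32, 9.07 and 9.26 under siC and 6.37, 6.72 and 6.92 under siI1. All siI1 values were below all siC values in both lines. ELOVL6 log2 fold changes were -0.90 (SE 0.13, adjusted p = 0.0018) and -0.41 (SE 0.066, adjusted p = 0.0046), with a difference of -0.49 (SE 0.14, adjusted p = 0.014). With a pseudocount of 1 this difference was -0.25 and did not pass (adjusted p = 0.060), so a larger fall in Hep-G2 depends on the pseudocount. ELOVL5, which lengthens polyunsaturated fatty acids, was the member that rose in BE(2)-C, at a log2 fold change of 0.14 (SE 0.040, adjusted p = 0.034), a call that depended on single libraries and fit settings. In Hep-G2 its groups overlapped, and its log2 fold change of 0.08 (adjusted p = 0.53) was -0.09 with equal FPKM sums and -0.03 without siI1 replicate 1. The difference for ELOVL5, -0.06, did not pass (adjusted p = 0.68).

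Several smaller changes in BE(2)-C depended on single libraries and on settings of the fit. The calls of TM7SF2, SCAP and ELOVL5 were each lost when any library but siC replicate 2 was left out, with adjusted p up to 0.12, 0.13 and 0.12. That of HSD17B7 was lost without any library but siI1 replicate 2 (adjusted p up to 0.091). The NSDHL call was lost without siC replicate 1, siC replicate 3, siI1 replicate 2 or siI1 replicate 3 (adjusted p up to 0.077), and that of FADS2 without siI1 replicate 3 (adjusted p = 0.060). With a library left out, log2 fold changes ran from -0.40 to -0.25 for TM7SF2, -0.25 to -0.16 for SCAP, 0.13 to 0.16 for ELOVL5, -0.37 to -0.29 for HSD17B7, -0.35 to -0.24 for NSDHL and -0.39 to -0.26 for FADS2. With a replicate block, the BE(2)-C calls of SCAP, HSD17B7 and TM7SF2, 3 of the 15 members that rose in Hep-G2 and fell in BE(2)-C, were not made either. Median centring and leaving out the filter each ended the calls of SCAP and TM7SF2, and a fit without trend those of SCAP, TM7SF2, ELOVL5, FADS2 and NSDHL. None of these 6 changed direction, and the number of members called lower in BE(2)-C ranged from 17 to 22 over the 6 libraries left out. The matching shares of all tested genes are not reported here.

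Genes next to these pathways, listed by name, are given for comparison, with log2 fold changes in brackets. As a background for the counts, 23.0% of all genes tested in Hep-G2 fell and 21.9% rose. Of all genes tested in BE(2)-C, 14.8% fell and 13.3% rose. In the branch from farnesyl pyrophosphate to dolichol, ubiquinone and prenylated proteins, 5 of 9 genes fell in Hep-G2 and none rose, among them NUS1 (-0.98), PDSS2 (-0.86), DHDDS (-0.50) and PGGT1B (-0.47). Of the BE(2)-C values, PDSS2 (-0.73) and DHDDS (-0.33) fell and none of the 9 rose. The median log2 fold change of this branch was -0.26 in Hep-G2, opposite in sign to that of the sterol enzymes, and -0.03 in BE(2)-C. Among 11 genes that process or degrade the SREBF machinery, 6 fell and 3 rose in Hep-G2, and the largest changes were falls of PAQR3 (-1.34), MBTPS2 (-1.23), C12orf49 (-0.82) and SEC24A (-0.52). Of the 11 in BE(2)-C, 3 fell and 2 rose, with MBTPS2 (-0.60), C12orf49 (-0.55) and ERLIN1 (-0.46) lower and ERLIN2 (0.66) higher. Their median was -0.45 in Hep-G2, while in BE(2)-C it was -0.02. For uptake, esterification and efflux of sterol, 6 of 13 genes fell and 6 rose in Hep-G2, among them NCEH1 (-1.37) and MYLIP (-0.90) lower and SCARB1 (1.22) and NR1H3 (0.79) higher. Of 14 tested in BE(2)-C, 5 fell and 3 rose, with NPC2 (-1.59) and NR1H3 (-0.82) lower and LIPA (0.75) and ABCA1 (1.22) higher, and the medians were 0.20 for Hep-G2 and -0.14 for BE(2)-C. ABCA1 had 4, 4 and 1 reads with siC there and 30, 38 and 21 reads with siI1, so the size of its change depends on the pseudocount. It passed the filter through the siI1 libraries alone, which fixed its direction, so this rise is no result, although the 3 rises counted here and the 5 negative differences counted for this list include it.

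Supply and elongation of fatty acids, with citrate export and acyl-CoA synthetases, had 6 genes lower and 5 higher of 16 tested in Hep-G2. The leading ones were ACSS2 (1.30), SLC25A1 (1.29) and MLXIPL (1.02), which rose, and ACSL5 (-0.95), which fell. Mean FPKM of SLC25A1, the mitochondrial citrate carrier, rose from 85.9 with siC to 211 with siI1 and that of ACSS2, which makes acetyl-CoA from acetate, from 20.2 with siC to 49.8 with siI1. Of 14 such genes in BE(2)-C, 5 fell and 1 rose, with FADS3 (-1.41), ACSS2 (-0.59) and ACSL1 (-0.42) lower and HSD17B12 (0.43) higher. All 5 genes of glycerolipid synthesis rose in Hep-G2, led by GPAM (1.79), DGAT2 (1.17), AGPAT2 (0.74) and DGAT1 (0.57). Mean FPKM of GPAM, which starts triglyceride assembly, rose from 14.8 with siC to 51.6 with siI1. Among them, AGPAT2 (-0.92) and DGAT1 (-0.32) fell in BE(2)-C and GPAM (0.62) rose. Of 13 genes of fatty acid oxidation and ketone body formation, 8 rose and 2 fell in Hep-G2, among them CPT1A (0.94) and ACAT1 (0.68) higher and CPT2 (-0.87) lower. Of 12 tested in BE(2)-C, 3 rose and 3 fell, with ACADM (0.40) higher and CPT2 (-1.15), ACADVL (-0.66) and BDH1 (-0.61) lower. Among all tested genes, 21.9% rose and 23.0% fell in Hep-G2, and 13.3% rose and 14.8% fell in BE(2)-C. Median log2 fold changes of these 3 lists were -0.01, 0.74 and 0.31 in Hep-G2. The same medians were -0.21, -0.18 and -0.12 in BE(2)-C. The test of the difference between the lines was positive for none and negative for 3 of 9 genes of the isoprenoid branch, 2 and 4 of 11 of SREBF processing, and 4 and 5 of 13 of sterol uptake, esterification and efflux. It was positive for 6 and negative for 3 of 11 genes of fatty acid supply and elongation, for 4 and none of 5 of glycerolipid synthesis, and for 7 and none of 12 of oxidation and ketone body formation. Over all genes tested in both lines the shares were 18.5% positive and 21.7% negative. Some calls in these lists were not stable. Those of SEC24A and PGGT1B in Hep-G2 and of NR1H3, BDH1, DGAT1, DHDDS and PDSS2 in BE(2)-C were each lost with 1 or more libraries left out. With a pseudocount of 1, the BE(2)-C log2 fold changes were -0.63 for FADS3, -0.81 for NPC2, -0.61 for CPT2 and, without a call, -0.48 for NR1H3, and the Hep-G2 ones were -0.88 for PAQR3 and -0.57 for CPT2.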

How the data were processed

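Expression of 58174 genes was measured by strand-specific sequencing of polyA RNA in 12 libraries of human cell lines, 3 for each of 4 groups. As the authors state, reads were trimmed with cutadapt 1.14, aligned to hg38 with HISAT2 2.1.0, sorted with SAMtools 1.5 and counted on an Ensembl annotation with featureCounts 1.5.3, and edgeR 3.30.3 was used with TMM normalization. The deposited values used here are FPKM, with a separate table for each cell line that was normalized on its own. All nonzero values lie on whole reads within a tolerance of 0.05, which gave the reads per library and gene. The tables list genes in different orders and were joined by gene identifier. The tables also hold the authors' own test results, which were not used here.

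A gene was tested in a line when 3 or more of its 6 libraries reached 0.1 FPKM, on log2 of FPKM plus a pseudocount of 0.1, with limma 3.58.1 (trended empirical Bayes, two-sided) in R 4.3.3 with the package data.table, version 1.17.8. P-values were adjusted by Benjamini-Hochberg over all tested genes, and the threshold was 0.05. The difference between the lines, Hep-G2 effect minus BE(2)-C effect, was taken from a joint fit of the 12 libraries over genes tested in both lines. The fits were tested on simulated data. An exact permutation test of 3 against 3 cannot go below p = 0.1 and was not used. Figures were drawn with Matplotlib 3.10.9 in Python 3.11.15.

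The members and the lists were chosen with earlier results of these data known, so they carry no test of their own and are described by counts and medians beside all tested genes. The lists are the members by role (sterol enzymes, sterol sensing, fatty acid synthesis), isoprenoid branch, SREBF processing, sterol uptake, esterification and efflux, fatty acid supply and elongation, glycerolipid synthesis, fatty acid oxidation and ketone body formation, hepatocyte markers and sympathetic neuroblast markers. Values in every library are given for members with adjusted p below 0.05 and an absolute log2 fold change of at least 0.5 in a line and for members called in both lines. INSIG1 in BE(2)-C is given as well, outside this rule, because it could not be tested in Hep-G2. Of each other pathway list, up to 4 called genes with the largest absolute log2 fold change are named per line. Some genes of these lists are not reported here.

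The tests, lists, naming rule and alternatives were fixed before the data were examined in this work. The alternatives were pseudocounts of 0.01 and 1, other filters, no trend, median centring, equal FPKM sums, limma-voom on the recovered reads, a replicate block, stricter thresholds, a difference of the separate fits, and leaving out each library in turn. Exon overlaps were taken from GENCODE v44, which is newer than the annotation of the tables. The strand setting of the read counting is not stated. Promoters were taken from RefSeq, build GRCh38.p14.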

Additional observations from a re-analysis of the deposited data

Results flagged for a closer look

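The results listed here differed between the cell lines by a test of the difference itself. Each value is the log2 fold change in Hep-G2 minus the log2 fold change in BE(2)-C, with adjusted p below 0.05 over all 15362 genes tested in both lines. It was positive for 25 members and negative for 2, against 18.5% and 21.7% of those genes, and no cause of it was tested.

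Among the sterol enzymes the difference was 2.08 for MVK, 2.08 for MVD, 1.64 for LSS, 1.52 for FDPS, 1.48 for TM7SF2, 1.41 for ACAT2, 1.30 for EBP and 1.25 for MSMO1. It was 1.22 for HSD17B7, 1.12 for FDFT1, 1.11 for NSDHL, 1.01 for IDI1, 1.00 for DHCR7, 0.81 for HMGCS1, 0.75 for PMVK and 0.74 for SQLE. Thus 16 of the 18 sterol enzymes differed, CYP51A1 and SC5D being the exceptions. Among the genes that sense or carry sterols, the difference was 1.31 for STARD4, 1.21 for SREBF2, 0.83 for SCAP and 0.73 for SREBF1, and -0.93 for INSIG2, whose fall was seen in Hep-G2. Among the fatty acid genes, it was 1.53 for FADS1, 1.46 for FADS2, 0.89 for SCD, 0.87 for ACACA and 0.75 for FASN, and -0.49 for ELOVL6, which fell in both lines and whose difference was -0.25, without a call, with a pseudocount of 1.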

How the results depend on the processing

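Each result was computed again under 11 other settings, 12 for the difference between the lines, and with each library left out, which leaves at least 2 libraries in every group. The direction and call of single members were the same in 528 of the Hep-G2 computations, with 5 calls lost, 8 gained and 3 signs reversed. In BE(2)-C they were the same in 491, with 59 lost, 7 gained and 3 reversed, and for the difference in 754, with 3 lost, 8 gained and 2 reversed.

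In Hep-G2 between 21 and 25 members were higher and between 3 and 4 lower over the other settings, and between 22 and 24 and always 3 with libraries left out. In BE(2)-C between 8 and 25 were lower, and 0 or 1 higher. None was higher there, so the count was 0, without trend, at adjusted p below 0.01, and with an absolute log2 value of at least 0.5, which left 8 lower, since most falls in BE(2)-C are smaller than that. With libraries left out, 17 to 22 were lower and 0 to 1 higher. The difference was positive for 25 to 26 members over the settings and also with libraries left out. It was negative for INSIG2 alone, ELOVL6 losing its call, with a pseudocount of 1, at adjusted p below 0.01, and with an absolute value of at least 0.5, so these are the 3 calls lost, and it was negative for 2 to 3 members with libraries left out. With a replicate block, 25 members were higher and 3 lower in Hep-G2, 19 lower and 1 higher in BE(2)-C, and the difference was positive for 26 and negative for 2. The shares of all tested genes called under these settings or with libraries left out are not reported here. These counts therefore show how the members' calls moved, and not how they stood beside all genes.

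All reversed values were of results that had not passed the test. In Hep-G2, ELOVL5 was -0.086 with equal FPKM sums and between -0.027 (without Hep-G2 siI1 replicate 1) and 0.15 with libraries left out, and CYP51A1 was between -0.15 (without the same library) and 0.38. In BE(2)-C, FASN was 0.0093 under median centring, 0.0024 with equal FPKM sums and between -0.079 and 0.034 with libraries left out, the latter without BE(2)-C siC replicate 1. The difference for SC5D was -0.071 with equal FPKM sums, and that for ELOVL5 was between -0.17 and 0.0038 with libraries left out, the latter without Hep-G2 siI1 replicate 3. Of the 8 calls gained for the difference, that of ACACB came with a pseudocount of 1, at 0.35. The difference for ELOVL5 passed the test without Hep-G2 siI1 replicate 1, and that for ACLY without Hep-G2 siI1 replicate 2, without BE(2)-C siC replicate 2, and with a filter of 1 FPKM, median centring, limma-voom or a replicate block, while with equal FPKM sums it was 0.031. Except where the size of a threshold shows it, the cause was not tested.

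INSIG1 had 0 or 1 reads per library in Hep-G2, for a reason that was not tested. Counts of ACACB and INSIG2 in BE(2)-C were low, with 49 to 79 and 89 to 138 reads per library. Counting error therefore adds to the spread of these 2 genes, and other sources of that spread were not tested. With 3 libraries per group, a change that did not pass the test is not shown to be absent. Same-numbered siC and siI1 libraries were correlated in their deviations at 0.33, 0.32 and -0.08 in Hep-G2 and at 0.20, -0.02 and 0.02 in BE(2)-C, across genes, which are not independent replicates.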
